A study of Rattus norvegicus with 12 samples.

Results

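The data concern 10 chemokine genes in injured rat liver: Cxcl1, Cxcl2, Ccl2, Ccl6, Ccl21, Ccl19, Cxcl12, Cxcl14, Cxcl16 and Cx3cl1. They were taken by name, as every probe set whose gene symbol in the deposited workbook was one of these (Ccl21 is listed there as Ccl21b). That gave 13 of the 31099 probe sets on the array, 3 of them for Cxcl12, 2 for Cxcl14 and 1 for each other gene. Of the 10 genes, 9 passed a filter on dim signals and were among the 10322 genes tested, and Cxcl2 did not pass.

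The study followed liver cirrhosis induced by carbon tetrachloride in 12-week-old Sprague-Dawley rats. RNA from the middle of the right liver lobe was hybridised to the Affymetrix Rat Genome 230 2.0 array, with 3 arrays each for normal liver at 0h and for liver at 3, 6 and 9 weeks of carbon tetrachloride. Per the labels, the 3 arrays within each group are technical replicates, and how many animals lie behind them is not stated, so that p-values measure the spread between arrays, which may be technical, and not the spread between rats. All groups carry the same age label, no vehicle or age-matched group is among the samples used here, and the labels give no dose.

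Chemokines are small secreted proteins that direct the movement of leukocytes through G protein-coupled receptors, and they are named C, CC, CXC or CX3C after the spacing of their conserved cysteines. Carbon tetrachloride is turned by cytochrome P450 in hepatocytes into a reactive radical that kills cells around the central veins. In injured liver, hepatocytes, Kupffer cells, stellate cells and endothelium are all known sources of chemokines. Some chemokines are induced through the transcription factor NF-kappaB, whereas others are made steadily to hold lymphocytes or stem cells in place.

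Array medians lay between 120.6 and 142.5 signal units, and arrays of a group correlated with each other at r between 0.967 and 0.977 over all probe sets, with no array standing apart. All 8 hepatocyte markers of a fixed list passed the filter, and albumin was at 34373 ± 1048 at 9 weeks and 40836 ± 3879 at 0h (mean ± SD, n = 3 arrays each). The hepatocyte factor Hnf4a fell at 3 and 9 weeks. Cpa1, a digestive enzyme of the pancreas, was at 6043.6 to 6537.7 on the 0h arrays and at 8.3 to 56.4 on the others. The other listed pancreatic genes did not share a step of this size. Their log2 differences at 3 weeks against 0h, without the filter, were -1.39 (Cela1), -0.16 (Cpb1), -0.12 (Amy2a3), 0.06 (Ctrb1), 0.07 (Prss1) and 0.74 (Pnlip). At 6 and 9 weeks they were -1.69 and -2.57 (Cela1), -1.82 and -1.86 (Cpb1), -0.61 and -0.37 (Amy2a3) and 0.37 and 0.44 (Pnlip). Ctrb1 (-0.45 and -0.20) and Prss1 (0.01 and 0.03) were below the filter. The part of pancreatic tissue in the results was not tested. In bulk tissue, fewer cells of a type and less RNA per cell cannot be told apart.

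The 10 genes did not move as a block. A gene was called when limma's Benjamini-Hochberg adjusted p was under 0.05 with a change of 2-fold or more on the scale log2(signal + 16), a scale that understates changes of dim genes. At 3 weeks, Cxcl1, Ccl21 and Cxcl16 rose (2.92% of all genes were called higher) and Cxcl14 fell (1.28% were called lower) against 0h. These were 4 of 9 tested members, where 4.19% of all 10322 genes were called. At 6 weeks, Ccl2 and Cxcl16 rose (5.14% of all genes) and Ccl6, Cxcl12 and Cx3cl1 fell (4.43%), which makes 5 of 9, beside 9.57% of all genes. At 9 weeks, Ccl2, Ccl21, Cxcl14 and Cxcl16 rose (6.32% of all genes) and Cxcl12 fell (3.63%), again 5 of 9, beside 9.95% of all genes. The median log2 difference of the 9 members was 0.09, -0.27 and 0.15 at 3, 6 and 9 weeks, and that of all genes was 0.01, 0.03 and 0.07. All 3 comparisons share the 0h arrays. Among the 9, 8 were called at least once against 0h, where 14.3% of all genes were, and only Cxcl16 was called at all 3 times, where 1.89% of all genes were.

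**Figure D1:**
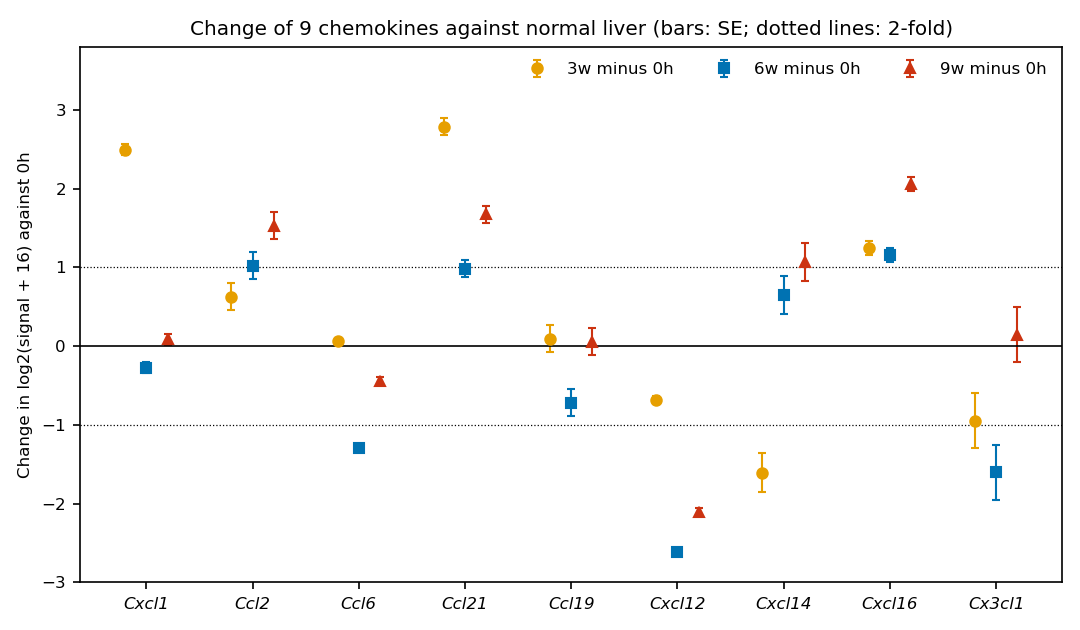
Change of the 9 tested chemokines against normal liver, as the difference in log2(signal + 16), with SE bars from limma and 3 arrays per group. Cxcl1 (2.50) and Ccl21 (2.79) stand highest at 3 weeks, Cxcl12 lowest at 6 and 9 weeks (-2.62 and -2.10), and Cxcl16 is above the 2-fold line at every time.

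The treated times were also set against each other. At 6 weeks against 3 weeks, Ccl6, Ccl21, Cxcl1 and Cxcl12 fell (4.31% of all genes) and Cxcl14 rose (3.21%), 5 of 9 beside 7.52% of all genes. At 9 weeks all 9 members were higher than at 6 weeks on the brightest probe set of each gene, by 0.36 to 1.75 on the log2 scale. The median was 0.69 beside 0.03 for all genes. Of these 9, 8 had an adjusted p under 0.05 at some size, where 14.9% of all genes were higher with such a p, but only Cx3cl1 passed the 2-fold limit. In that comparison 2.53% of all genes were called, 1.94% higher and 0.591% lower. The other probe sets of the members did not all rise. Cxcl12 was lower at 9 weeks on 1387655_at (-0.55) and higher on 1369633_at (0.69), and Cxcl14 was level on 1396129_at (0.05). At 9 weeks against 3 weeks, Cxcl14 and Cx3cl1 rose (3.01% of all genes) and Ccl21, Cxcl1 and Cxcl12 fell (2.77%), 5 of 9 beside 5.78% of all genes.

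**Figure D2:**
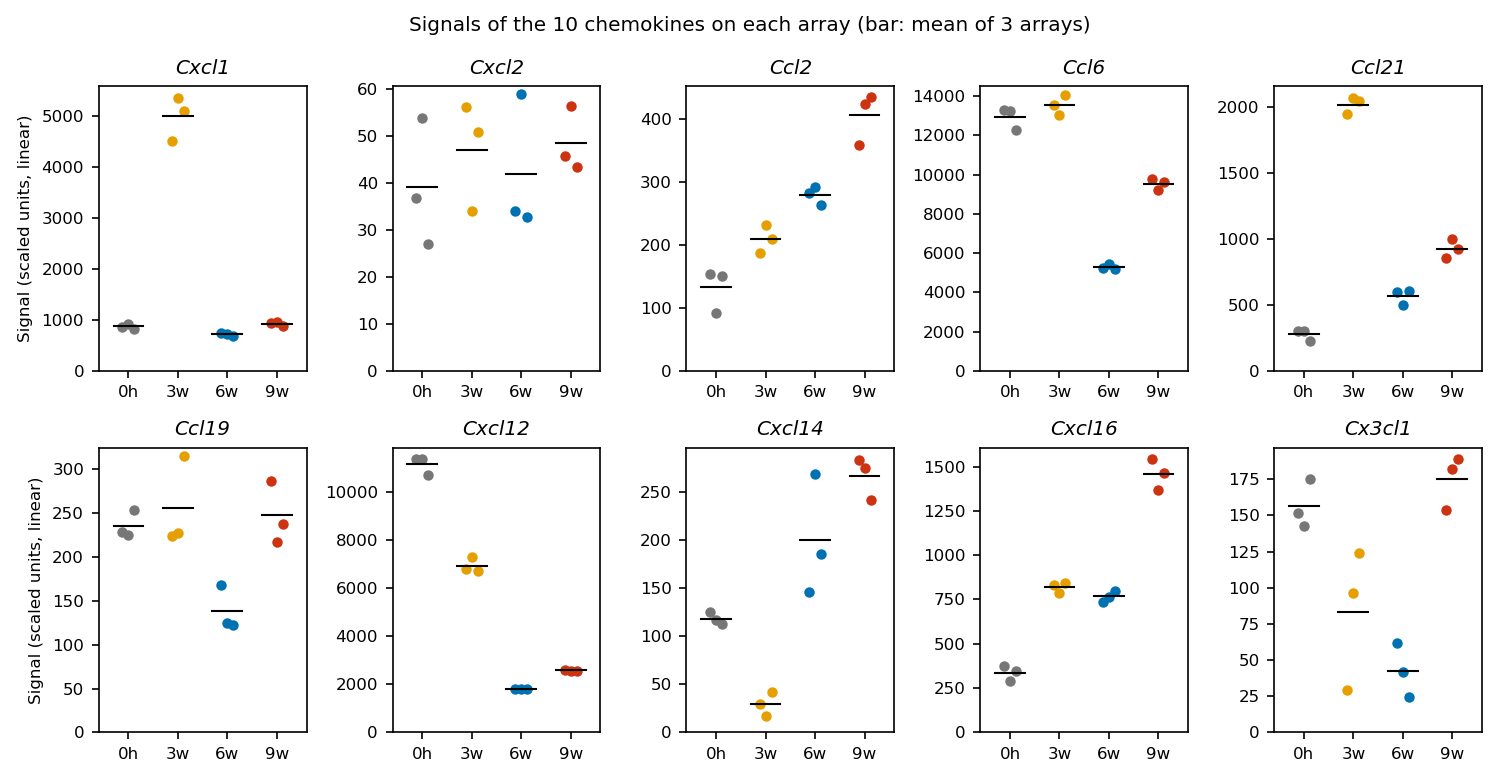
Signal of the 10 chemokines on each of the 12 arrays at 0h, 3, 6 and 9 weeks, on linear axes from 0 in the authors' scaled units that differ between panels, with 1 point per array and a bar for the mean of 3 arrays. Cxcl1 lies between 4509.9 and 5347 on the 3-week arrays and between 684.8 and 952.9 on the other 9.

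The neutrophil-attracting CXC chemokines Cxcl1 and Cxcl2 act through the receptor Cxcr2 and lie beside each other on chromosome 14. Their promoters are shown because both carry a match to the NF-kappaB consensus, in capitals, in the 250 bases before the RefSeq start site (build GRCr8, minus strand, chr14:17479322-17479571 for Cxcl1 and chr14:17467256-17467505 for Cxcl2).
Cxcl1: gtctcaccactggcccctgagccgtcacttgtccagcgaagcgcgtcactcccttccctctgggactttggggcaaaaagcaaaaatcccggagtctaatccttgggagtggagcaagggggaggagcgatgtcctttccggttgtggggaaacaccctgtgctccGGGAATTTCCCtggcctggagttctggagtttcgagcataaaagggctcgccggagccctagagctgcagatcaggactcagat
Cxcl2: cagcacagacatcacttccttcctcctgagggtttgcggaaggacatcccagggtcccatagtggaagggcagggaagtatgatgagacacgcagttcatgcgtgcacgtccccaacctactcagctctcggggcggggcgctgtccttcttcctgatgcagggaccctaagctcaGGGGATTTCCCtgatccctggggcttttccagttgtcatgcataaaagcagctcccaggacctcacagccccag
The match ran from base -84 to -74 in Cxcl1 and from -74 to -64 in Cxcl2, counted from the start site. In Cxcl1 it held 2 overlapping matches on opposite strands, and in Cxcl2 it held 3 overlapping ones. With both strands searched, 2 of the 9 members with a listed promoter had such a match, against 6.325% of all 33469 RefSeq promoters of this length. A match is a run of letters and not a measured binding site.

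Cxcl1 was at 868.1, 928.3 and 813.4 on the 0h arrays, at 4509.9, 5347 and 5100.2 at 3 weeks, at 738.7, 726.6 and 684.8 at 6 weeks and at 940.9, 952.9 and 878.9 at 9 weeks. The 3-week arrays were far above all others, the 6-week arrays were the lowest, and the 9-week arrays overlapped the 0h arrays. Cxcl1 rose by 2.50 ± 0.07 at 3 weeks against 0h (log2 difference ± SE, adjusted p = 1.028e-13, limma). It was -0.27 ± 0.07 at 6 weeks (limma, adjusted p = 0.00408) and 0.09 ± 0.07 at 9 weeks (adjusted p = 0.326), neither of them 2-fold. The fall at 6 weeks against 3 weeks measured -2.77 ± 0.07.

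Cxcl2 shared the promoter motif but was dim. It ranged from 27 to 53.9 on the 0h arrays, from 34.1 to 56.3 at 3 weeks, from 32.8 to 59.1 at 6 weeks and from 43.5 to 56.4 at 9 weeks, and all groups overlapped. When limma was run without the filter, its log2 differences from 0h were 0.20, 0.07 and 0.25, with adjusted p of 0.654, 0.882 and 0.541. Cxcl3, a close relative that lies near Cxcl1 on the same chromosome and was looked at after the values were seen, was also below the filter. It was at 10.2, 11.9 and 24.6 at 0h and at 103.4, 67.6 and 147.7 at 3 weeks. Those groups did not overlap, and without the filter the difference was 1.93 ± 0.54 (log2, limma, adjusted p = 0.0129). Unlike Cxcl1, Cxcl3 stayed above 0h later. Its difference was 1.48 ± 0.54 at 6 weeks and 1.37 ± 0.54 at 9 weeks (limma without the filter, adjusted p = 0.0395 and 0.0548). The receptor Cxcr2 was below the filter as well.

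The tested neutrophil markers were higher in the same 3-week arrays as Cxcl1. Of 9 listed markers, 5 were on the array and 3 passed the filter (Cxcr2 and Camp did not). The summed signal of all 5 lay between 4301.5 and 4587.8 at 0h, 9155.3 and 9322 at 3 weeks, 2164.6 and 2356.6 at 6 weeks and 1267 and 1306.3 at 9 weeks. At 3 weeks S100a9, a calcium-binding protein abundant in neutrophils, rose by 1.11 ± 0.06, and Csf3r, the receptor of the neutrophil growth factor G-CSF, rose by 1.21 ± 0.24. S100a9 fell by 1.86 ± 0.06 at 9 weeks, where Cxcl1 did not differ 2-fold from 0h. The markers did not fall together. At 6 and 9 weeks S100a8 stood at -0.92 and -1.81 against 0h, but Csf3r at 0.05 and 0.03. Without the filter, Cxcr2 stood at -0.19, 0.71 and 0.24 at the 3 times and Camp at 0.71, -0.24 and -0.77. The neutrophils' part in the Cxcl1 result was not tested.

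The monocyte-attracting CC chemokines went opposite ways at 6 weeks against 0h. Ccl2, the ligand of Ccr2 that draws monocytes into tissue, was at 154, 92.6 and 150.8 on the 0h arrays, at 186.8, 232 and 209.8 at 3 weeks, at 283, 291.9 and 263.5 at 6 weeks and at 358.2, 422.8 and 434.9 at 9 weeks. No 2 groups overlapped, and each later time was above the one before. The log2 difference from 0h was 0.63 ± 0.17 at 3 weeks (limma, adjusted p = 0.00702), which is not 2-fold, and Ccl2 rose by 1.02 ± 0.17 at 6 weeks and 1.53 ± 0.17 at 9 weeks (limma, adjusted p = 7.48e-05 and 8.45e-07). The 6-week call depended on 1 array of each group: without the second 0h array the difference was 0.81, and without the second 6-week array it was 0.99. It was 0.82 with a pseudocount of 64, 0.97 after quantile normalisation and 0.99 with arrays centred on their medians. Its receptor Ccr2 was below the filter. Gpnmb, a glycoprotein of lipid-laden and scar-associated macrophages, rose by 1.45, 2.63 and 3.18 at the 3 times. It was the only 1 of 9 tested macrophage markers that was called higher against 0h at any of them. Of all genes, 2.92%, 5.14% and 6.32% were called higher at 3, 6 and 9 weeks. The list median was 0.23, -0.58 and 0.14, and the part of macrophages in the Ccl2 result was not tested.

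Ccl6, a CC chemokine of rodents made by macrophages, was at 13308, 13235 and 12294 on the 0h arrays, at 13526, 13010 and 14069 at 3 weeks, at 5229.4, 5468.4 and 5181.7 at 6 weeks and at 9767, 9193.7 and 9634.9 at 9 weeks. The 3-week and 0h arrays overlapped, the 6-week arrays were the lowest and the 9-week arrays lay between. Ccl6 fell by 1.29 ± 0.05 at 6 weeks against 0h (log2, limma, adjusted p = 3.33e-13). At 9 weeks it stood at -0.44 ± 0.05 against 0h (limma, adjusted p = 3.82e-07), which is not 2-fold.

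Red cell genes were also lower at 6 weeks. All 5 listed red cell markers were tested, and 4 fell at 6 weeks (4.43% of all genes) and 3 at 9 weeks (3.63%). Their summed signal was 58806 to 65506 at 0h, 55477 to 59018 at 3 weeks, 12668 to 14134 at 6 weeks and 32318 to 34239 at 9 weeks. Haemoglobin beta (Hbb) fell by 2.45 at 6 weeks and 1.07 at 9 weeks against 0h. Of 12 listed macrophage markers, 9 were on the array and all 9 were tested; their summed signal was 25899 to 26751 at 0h, 34989 to 36297 at 3 weeks, 26668 to 27134 at 6 weeks and 34599 to 35143 at 9 weeks. At 6 weeks 2 of the 9 were called lower (4.43% of all genes): Adgre1 (F4/80) fell by 1.08 ± 0.08 and the integrin Itgam fell by 1.08 ± 0.29. Gpnmb rose by 2.63 ± 0.06 (5.14% of all genes were called higher), and the list median was -0.58 beside 0.03 for all genes. The part of red cells or macrophages in the Ccl6 result was not tested.

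**Figure D3:**
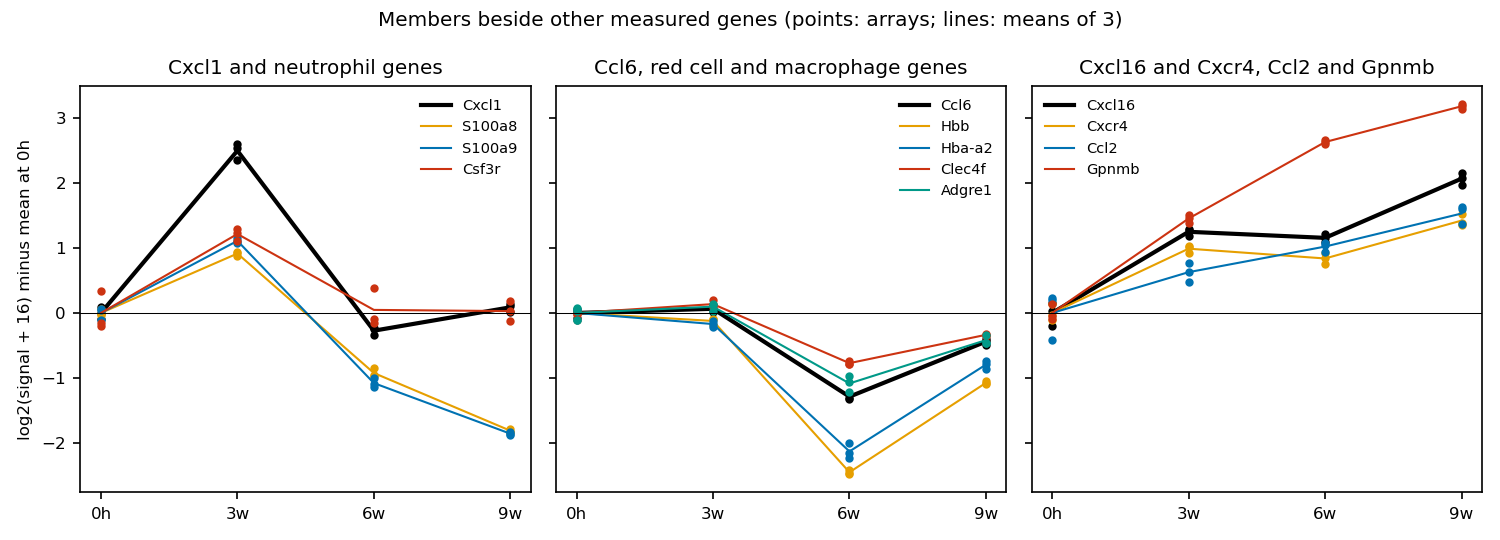
log2(signal + 16) minus its mean at 0h, against time, with 1 point per array and lines through the means of 3 arrays, for Cxcl1 with neutrophil genes, for Ccl6 with red cell and macrophage genes, and for Cxcl16, Cxcr4, Ccl2 and Gpnmb. At 6 weeks Ccl6 (-1.29), Hbb (-2.45) and Adgre1 (-1.08) are all below 0h, and at 3 weeks Cxcl1 (2.50) and S100a9 (1.11) are both above it.

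Ccl21 and Ccl19, the ligands of Ccr7, guide naive T cells and dendritic cells, and only 1 gene locus separates them on chromosome 5. Their promoters are shown side by side because, of these neighbours, Ccl21 was called and Ccl19 was not (GRCr8, minus strand, chr5:61777516-61777765 for Ccl21 and chr5:61761165-61761414 for Ccl19).
Ccl21: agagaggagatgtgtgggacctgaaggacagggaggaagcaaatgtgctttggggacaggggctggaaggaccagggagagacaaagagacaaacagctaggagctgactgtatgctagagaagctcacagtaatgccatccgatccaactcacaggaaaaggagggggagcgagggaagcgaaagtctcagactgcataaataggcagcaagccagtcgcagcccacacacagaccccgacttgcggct
Ccl19: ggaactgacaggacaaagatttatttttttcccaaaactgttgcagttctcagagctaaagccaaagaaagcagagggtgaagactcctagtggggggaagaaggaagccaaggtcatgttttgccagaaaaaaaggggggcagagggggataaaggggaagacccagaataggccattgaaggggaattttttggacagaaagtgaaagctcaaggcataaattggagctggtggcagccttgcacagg
Neither held the NF-kappaB consensus, TATAAA or the AP-1 motif TGAGTCA. Ccl19 held the interferon response element TTTCNNTTTC on the strand opposite the gene, at bases -51 to -42; 3.406% of all promoters of this length held it on either strand.

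Ccl21, a chemokine of lymphatic endothelium and lymphoid stroma, was at 305.7, 305.2 and 230.2 on the 0h arrays, at 1942, 2064.8 and 2041.9 at 3 weeks, at 598.2, 498.8 and 606 at 6 weeks and at 853.1, 999.4 and 924.9 at 9 weeks. No 2 groups overlapped, with the 3-week arrays the highest and the 0h arrays the lowest. Ccl21 rose by 2.79 ± 0.11 at 3 weeks, a 7.19-fold ratio of means, and by 1.68 ± 0.11 at 9 weeks (limma, adjusted p = 3.55e-12 and 7.57e-10). At 6 weeks the log2 difference was 0.98 ± 0.11 (limma, adjusted p = 5.85e-07), just short of 2-fold on the log2 scale used for calls. The plain ratio of means at 6 weeks was 2.02-fold. Without the first 0h array, the second 0h array or the second 6-week array the log2 difference was 1.05, 1.05 and 1.07. At 6 weeks against 3 weeks Ccl21 fell by 1.80 ± 0.11.

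Ccl19, made by lymphoid stroma and dendritic cells, ranged from 225.6 to 254 (median 228.4) on the 0h arrays, from 223.6 to 315.4 (median 227.6) at 3 weeks, from 122.5 to 168.2 (median 124.4) at 6 weeks and from 217.6 to 287.2 (median 238) at 9 weeks. The 6-week arrays were below all others, which overlapped each other. Against 0h, its log2 differences were 0.09, -0.72 and 0.06 in the order of the 3 times, each with an SE of 0.17 and with adjusted p of 0.701, 0.00203 and 0.801 (limma), so that it was called at no time.

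Ltb encodes lymphotoxin beta, a membrane cytokine that drives lymphoid stroma to make Ccl21 and Ccl19. It rose by 1.63 ± 0.16 at 3 weeks and fell by 1.14 ± 0.16 at 6 weeks, and its log2 difference was 0.50 ± 0.16 at 9 weeks. Its receptor Ltbr stood at 0.83, 0.95 and 0.90, below 2-fold each time. Of 6 lymphatic endothelial markers, all were tested and none was called against 0h, where 14.3% of all genes were called at 1 or more times. The summed signal of the 6 markers was 4896.5 to 5161.4 at 0h, 6579.4 to 6935.4 at 3 weeks, 3337.4 to 3512.1 at 6 weeks and 3736.9 to 3968.8 at 9 weeks. Lyve1 is also on the list of endothelial markers and Reln on that of stellate cell markers, so that this sum is not particular to lymphatic endothelium. Of 15 lymphocyte and dendritic cell markers, 11 were on the array and 8 were tested, and 3 of them fell at 6 weeks (4.43% of all genes). The summed signal of all 11 was 1583.4 to 1721.4 at 0h, 1779.3 to 1972.9 at 3 weeks, 981.6 to 1061.2 at 6 weeks and 1734.6 to 2035.1 at 9 weeks. The part of these cell types in the Ccl21 and Ccl19 values was not tested. No probe set here was matched to the shared receptor Ccr7.

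The steadily made CXC chemokine Cxcl12 holds stem cells and lymphocytes in place through Cxcr4, and sinusoidal endothelium and stellate cells are known liver sources. On probe set 1388583_at, the brightest and the one that stands for the gene, it was at 11390, 11392 and 10741 on the 0h arrays, at 6801.2, 7325.7 and 6737.3 at 3 weeks, at 1821.3, 1795.8 and 1798.4 at 6 weeks and at 2621.4, 2570.7 and 2571 at 9 weeks. No 2 groups overlapped. Cxcl12 fell by 2.62 ± 0.04 at 6 weeks and 2.10 ± 0.04 at 9 weeks against 0h (log2, limma, adjusted p = 2.00e-17 and 5.14e-16), a mean 6.19-fold lower at 6 weeks. At 3 weeks the log2 difference was -0.68 ± 0.04 (limma, adjusted p = 3.42e-09), which is not 2-fold.

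Markers of the known sources moved in different ways. Of 11 endothelial markers, 9 were on the array and tested, and their summed signal was 13142 to 13630.0 at 0h, 16080 to 16507 at 3 weeks, 8333.2 to 9342.6 at 6 weeks and 10357 to 11217 at 9 weeks. At 6 weeks the growth factor receptor Kdr fell by 1.09 ± 0.06 and Plvap, a protein of endothelial pores, fell by 2.42 ± 0.33 (4.43% of all genes fell). None of the list was called at 3 or 9 weeks. All 11 stellate cell and fibroblast markers were tested; their summed signal was 7061.2 to 7291.2 at 0h, 17516 to 18470.3 at 3 weeks, 11220 to 11660 at 6 weeks and 11500.0 to 11815 at 9 weeks. Of these, 5, 2 and 3 rose at the 3 times and 0 fell. Over all genes 2.92%, 5.14% and 6.32% rose and 1.28%, 4.43% and 3.63% fell. The part of either cell type in the Cxcl12 result was not tested.

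The other probe sets of Cxcl12 gave the same falls at 6 and 9 weeks but parted at the last step. The log2 difference at 6 weeks against 0h was -2.16 for 1369633_at and -2.63 for 1387655_at, and at 9 weeks it was -1.47 and -3.18. Probe set 1387655_at was at 242.7, 297.6 and 211.2 at 9 weeks, against 342.8, 368.9 and 401.5 at 6 weeks. The 9-week arrays were thus the lower ones on this probe set, by -0.55 ± 0.10 on the log2 scale (limma over all probe sets, adjusted p = 0.000489). On 1369633_at the 9-week arrays were the higher ones, by 0.69 ± 0.09 (limma, adjusted p = 1.5e-05), and on 1388583_at they were higher by 0.52. None of these steps was 2-fold. RefSeq lists 3 transcripts of Cxcl12, and which of them each probe set reads was not determined here.

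**Figure D4:**
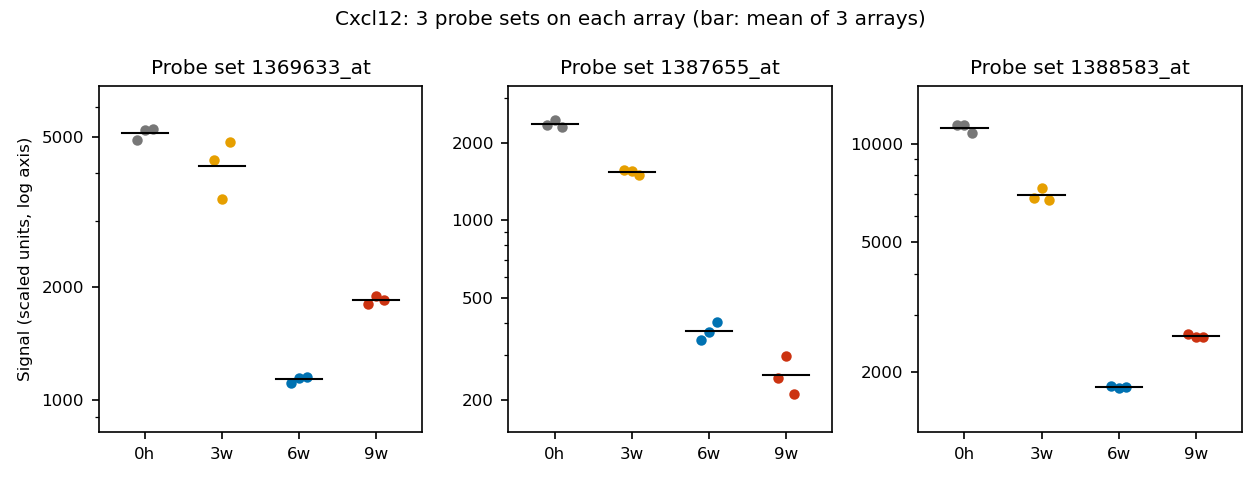
Signal of the 3 Cxcl12 probe sets on each array, on log axes with 1 point per array and a bar for the mean of 3 arrays; the axes differ between panels. All 3 are lowest or next to lowest at 6 and 9 weeks, and 1387655_at alone is lower at 9 weeks (211.2 to 297.6) than at 6 weeks (342.8 to 401.5).

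Cxcl14, a CXC chemokine of epithelia whose receptor is debated, was at 124.5, 117 and 112.6 on the 0h arrays of probe set 1388485_at, at 29, 17 and 41.6 at 3 weeks, at 145.5, 267.9 and 185.6 at 6 weeks and at 282.5, 274 and 241.2 at 9 weeks. The 3-week arrays were below and the 6- and 9-week arrays above the 0h arrays without overlap, and those of 6 and 9 weeks overlapped. Cxcl14 fell by 1.60 ± 0.24 at 3 weeks and rose by 1.07 ± 0.24 at 9 weeks against 0h (log2, limma, adjusted p = 5.00e-05 and 0.00124), and its 6-week difference was 0.65 ± 0.24 (adjusted p = 0.0323). Its 3-week signals lie under the filter level of 75.3, where a signal gives little more than a bound. The second probe set, 1396129_at, was below the filter. It was at 48, 23.3 and 56.1 at 3 weeks, against 84.3, 63.6 and 68.1 at 0h, which did not overlap, and without a filter its 3-week difference was -0.63 (limma, adjusted p = 0.164). Its 6-week and 9-week arrays overlapped the 0h arrays. Both calls of Cxcl14 against 0h were lost with a pseudocount of 64, at -0.97 and 0.86. In its promoter, which is not printed, the AP-1 motif TGAGTCA lay at bases -99 to -93; 4.046% of promoters held it.

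Cxcl16 and Cx3cl1 are the chemokines made as membrane proteins, which hold cells that carry Cxcr6 or Cx3cr1 and are shed by the proteases Adam10 and Adam17. Cxcl16 was at 377.3, 291.6 and 344 on the 0h arrays, at 832, 787.1 and 841.3 at 3 weeks, at 737.5, 766.7 and 799.2 at 6 weeks and at 1544.6, 1364.8 and 1466 at 9 weeks. All treated groups lay above the 0h arrays, those of 3 and 6 weeks overlapped, and the 9-week arrays were the highest. Cxcl16 rose by 1.25 ± 0.09, 1.15 ± 0.09 and 2.07 ± 0.09 at 3, 6 and 9 weeks against 0h (log2, limma, adjusted p = 9.22e-09, 7.68e-09 and 4.62e-12), and the mean at 9 weeks was 4.32-fold that at 0h.

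Cx3cl1 was at 151.5, 142.8 and 175.5 on the 0h arrays, at 29.5, 96.1 and 124 at 3 weeks, at 61.7, 41.9 and 24.5 at 6 weeks and at 154, 182.4 and 188.8 at 9 weeks. The 6-week arrays were below the 0h arrays and the 9-week arrays overlapped them, and the 3-week arrays spread widely. Cx3cl1 fell by 1.60 ± 0.35 at 6 weeks (log2, limma, adjusted p = 0.000863), but all 3 signals at 6 weeks lie under the filter level of 75.3, so that the size of the fall is poorly fixed. Its difference was -0.94 ± 0.35 at 3 weeks (limma, adjusted p = 0.0374), not 2-fold, and 0.15 ± 0.35 at 9 weeks (adjusted p = 0.747). The first 3-week array weighed heavily: without it the 9-week difference from 3 weeks was 0.60 (limma, adjusted p = 0.092), against 1.09 with it, and the 6-week difference from 3 weeks was -1.14, against -0.66 with it. Against 0h, Adam17 stood at 0.03, -0.57 ± 0.11 and -0.31 at 3, 6 and 9 weeks. Adam10 stood at -0.35, -0.39 and -0.88 ± 0.16, and none of these differences was 2-fold.

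Among the receptors on a fixed list of 18, 13 were on the array and 6 were tested. Cxcr4, the receptor of Cxcl12, was at 103 ± 10.6 at 0h, 219.7 ± 8.87 at 3 weeks, 196.5 ± 12.8 at 6 weeks and 302.2 ± 19.1 at 9 weeks (SD, n = 3 arrays each). It rose by 1.42 ± 0.14 at 9 weeks. Its log2 differences of 0.99 and 0.84 at 3 and 6 weeks were short of 2-fold on the log2 scale used for calls. In plain signal, the Cxcr4 mean at 3 weeks was more than 2-fold that at 0h, and the mean at 6 weeks was not. Ccr1, a receptor of several CC chemokines on monocytes, rose by 1.04 ± 0.27 at 3 weeks and 1.06 ± 0.27 at 6 weeks. Cxcr3, the receptor of Cxcl9 and Cxcl10 on T cells, fell by 1.03 ± 0.18 at 6 weeks. Cx3cr1, the receptor of Cx3cl1, stood at 0.30, -0.29 and -0.12 and was not called. The median of the 6 tested receptors was 0.38, -0.19 and 0.14 at the 3 times, where that of all genes was 0.01, 0.03 and 0.07.

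Of 24 other chemokines, 21 were on the array and 14 were tested. Against 0h, 1 rose and 0 fell at 3 weeks, 0 rose and 5 fell at 6 weeks, and 2 rose and 2 fell at 9 weeks. Over all genes 2.92%, 5.14% and 6.32% rose and 1.28%, 4.43% and 3.63% fell at these times, and the list median was -0.05, -0.45 and -0.20. At 9 weeks 6 were called higher than at 6 weeks and 0 lower, where 1.94% and 0.591% of all genes were, with a median of 0.54 beside 0.03 for all genes. Cxcl9, an interferon-gamma-induced ligand of Cxcr3, had the largest rise of the list at 3 and 9 weeks. It was at 654.6 ± 96.7 at 0h, 1591 ± 17.8 at 3 weeks, 246 ± 9.49 at 6 weeks and 3018 ± 21.5 at 9 weeks. It rose by 1.27 ± 0.09 at 3 weeks, fell by 1.34 ± 0.09 at 6 weeks and rose by 2.19 ± 0.09 at 9 weeks. Xcl1, the C chemokine of T and natural killer cells, fell by 2.39 ± 0.31 at 6 weeks. Ppbp, a platelet chemokine, fell by 1.49 ± 0.28 at 9 weeks.

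**Figure D5:**
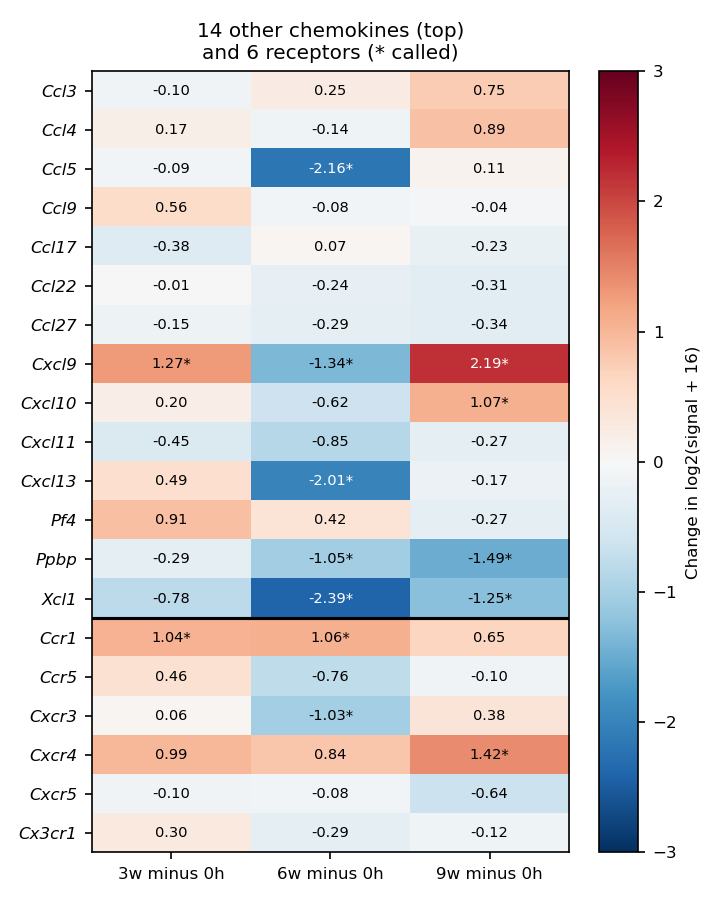
Difference in log2(signal + 16) from 0h at 3, 6 and 9 weeks for the other tested chemokines and the tested receptors, as a colour map with the values printed in the cells and called ones starred. Cxcl9 is above 0h at 3 and 9 weeks (1.27 and 2.19) and below it at 6 weeks (-1.34).

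Genes that process, induce or regulate chemokines were read from fixed lists. Of 9 tested atypical receptors and processing enzymes, Ccrl2, which binds and presents chemerin, rose by 1.08 ± 0.38 at 3 weeks and 1.31 ± 0.38 at 9 weeks, and nothing else on the list was called against 0h; Ackr3, the scavenger of Cxcl12, stood at -0.09, -0.32 and -0.32. Of 12 tested inducers and their receptors, 1 rose at 3 weeks (2.92% of all genes), 5 fell at 6 weeks (4.43%) and 2 fell at 9 weeks (3.63%). Among those that fell were the pattern receptor Tlr2 (-1.21 ± 0.16 at 6 weeks) and the interleukin-1 receptor Il1r1 (-3.11 ± 0.12 at 9 weeks). Tnf, Il6, Ifng and Lta were below the filter. Of 12 tested genes of the NF-kappaB pathway, Nfkb2, which encodes its p100 precursor, rose by 1.59 ± 0.18 at 6 weeks and 1.79 ± 0.18 at 9 weeks, and no other was called against 0h. The median of this list was 0.22, 0.38 and 0.49 at the 3 times, and that of the inducers was 0.36, -0.34 and -0.03. For all genes it was 0.01, 0.03 and 0.07.

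For each of the 8 called members, the 3 tested genes with the highest Pearson r over the 12 arrays were read out; since the 12 points fall into 4 groups of 3 arrays, r mainly describes the order of 4 group levels. Cxcl1 was closest to the clock gene Per2 (r = 0.991), the co-chaperone Fkbp4 (0.990) and the cytochrome P450 gene Cyp3a18 (0.988). Ccl6 was closest to Hbb (0.992) and Hba-a2 (0.991), the haemoglobin chains, and to H2-T24 (0.988). Cxcl12 was closest to Alad, an enzyme of haem synthesis (0.997), Cyp3a9 (0.997) and the hepatic lipase Lipc (0.996). Cxcl16 was closest to Cxcr4 (0.986), Maz (0.983) and Fxyd2 (0.981). Ccl21 was closest to Spink3 (0.984), Rgs3 (0.978) and Gclc (0.976), and Ccl2 to Eno2 (0.967), Cfl1 (0.966) and Tecpr1 (0.965). Cxcl14 had Psmc1 (0.974), Tfe3 (0.973) and Pelo (0.970) nearest, and Cx3cl1 had Pdzd8 (0.915), Slco1a4 (0.914) and Mzb1 (0.908).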

How the data were processed

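Liver RNA from 12 arrays (4 groups of 3) was analysed. The signal intensity values are the authors' deposited ones, scaled per array and made with GCOS 2.0, per the submitters' processing notes; summarisation settings are not given in the sources used here. The trimmed mean of each array was 500.20 to 500.24. Arrays carry no read depth, and their number limits the precision. The deposited workbook also holds the authors' log2 ratio and ratio columns, 9 per comparison with 0h. No per-sample column was left without a sample (0).

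From these, log2(signal + 16) was taken, with probe sets kept when their mean lay above the 40th percentile of non-control probe sets (signal 75.3, 18625 kept). The probe set with the highest mean stood for a gene, which left 10322 genes. Symbols were updated through RefSeq's table for GRCr8 (3178 probe sets by synonym, 26 by accession). Group means were compared with limma 3.58.1 in R 4.3.3, with 8 residual degrees of freedom, p-values adjusted over all genes within each of 6 comparisons. The pipeline was tested on simulated data. Named genes were the 10 members, the called genes with the largest rise and fall against 0h in each of 5 companion lists (other chemokines, receptors, atypical receptors and processing, inducers, NF-kappaB pathway), the members' receptors, and the 3 genes most like each called member. Ltbr, Adam10, Adam17, Ackr3, Cxcl3, the neighbours Ccl9, Ccl3, Ccl17 and Ccl22, and the marker genes given as examples were chosen outside this rule, after their values were seen. Members and lists were chosen with earlier results of these data known. Alternatives were other pseudocounts, filters, normalisations, fold limits, probe set rules, a replicate block and leaving out each array. RefSeq promoters (GRCr8) were listed for 9 members. Python 3.11.15 drew the figures.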

Additional observations from a re-analysis of the deposited data

Results flagged for a closer look

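Cxcl14 changed differently at 2 times under the same comparison with 0h. Its log2 difference was -1.60 ± 0.24 at 3 weeks and 1.07 ± 0.24 at 9 weeks, and the test of the difference itself gave 2.67 ± 0.24 (limma, adjusted p = 9.76e-08), with all 3 arrays at 9 weeks above and all 3 at 3 weeks below every 0h array. The 3-week signals of 17 to 41.6 lie under the filter level of 75.3. The second probe set of the gene, also dim, was at 71.2 to 97.5 at 9 weeks and 23.3 to 56.1 at 3 weeks, which did not overlap, while its 9-week arrays overlapped the 0h arrays (63.6 to 84.3). On it the 9-week difference from 3 weeks was 0.77 ± 0.32 (limma over probe sets without the filter, adjusted p = 0.07985), which would not be called.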

How the results depend on the processing

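Of 1332 recomputed member changes, 1292 kept their direction and side of the threshold, 23 gained a call, 9 lost one and 8 turned in sign; of 25 called changes, 17 held under every alternative. Calls were lost for Ccl2 at 6 weeks, Cxcl14 at 3 and 9 weeks and Cx3cl1 between 9 and 3 weeks; the cause was not tested. The other 4, Cx3cl1 at 6 weeks and between 9 and 6 weeks and Cxcl14 between 6 and 3 and between 9 and 3 weeks, held wherever tested but were not tested with the 60th percentile filter. The 8 turned values belong to uncalled changes: Ccl6 at 3 weeks was -0.0356 with arrays centred; Ccl19 at 3 weeks was -0.0069 with arrays centred and ranged from -0.059 to 0.175 with 1 array left out; Ccl19 at 9 weeks against 0h was -0.011 with quantile normalisation and ranged from -0.0472 to 0.141 with 1 array left out; Ccl19 at 9 weeks against 3 weeks was 0.0379 with arrays centred and ranged from -0.14 to 0.117. Genes called moved beyond 1.5 times, to 286 with a pseudocount of 64 and 282 with the 60th percentile filter at 3 weeks, and to 166 with a pseudocount of 64 and 401 with every probe set on its own between 9 and 6 weeks. With a 1.5-fold limit they were 1425, 2540 and 2603 at 3, 6 and 9 weeks against 0h, 2050 between 6 and 3 weeks, 795 between 9 and 6 weeks and 1793 between 9 and 3 weeks. Members called at 1.5-fold were 7 at 3 weeks, 8 at 6 weeks and 5 between 9 and 6 weeks; with the 60th percentile filter, which removed Cx3cl1 and Cxcl14, they were 0 between 9 and 6 weeks and 3 between 9 and 3 weeks. With 1 array left out, genes called ranged from 430 to 455, 986 to 1010 and 1020 to 1042 at 3, 6 and 9 weeks against 0h. A replicate block called 434, 985 and 1025 genes against 0h, 777 between 6 and 3 weeks, 261 between 9 and 6 weeks and 598 between 9 and 3 weeks, and changed no member's call. After group means were subtracted, same-numbered arrays of different groups correlated at -0.04 to 0.124 over 18 pairs of arrays, 2 of them over 0.1. Differently numbered arrays correlated at -0.176 to 0.132 over 36 pairs, 1 of them over 0.1. These ranges overlap and do not settle whether the numbers pair the arrays. Dim signals, as for Cxcl2, Cxcl14 and Cx3cl1, limit what can be seen.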

Other observations

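Chemokine genes that lie next to members did not all move with them. Ccl9, beside Ccl6, was at 29644 ± 959 at 3 weeks and 20166 ± 957.7 at 0h (SD, n = 3 arrays each), a log2 difference of 0.56 ± 0.06 that was not 2-fold, and it stood at -0.08 at 6 weeks, where Ccl6 fell by 1.29. Ccl3, on the other side of Ccl6, stood at -0.10, 0.25 and 0.75 against 0h and was not called. Ccl17 and Ccl22, on either side of Cx3cl1, stood at 0.07 and -0.24 at 6 weeks, where Cx3cl1 fell by 1.60.

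In the authors' deposited table the mean of 9 log2 ratios against 0h was 2.89, -0.01 and 0.26 for Cxcl1 at 3, 6 and 9 weeks and 2.32, 0.84 and 1.46 for Ccl21. In the authors' deposited table it was 0.88, 1.31 and 1.86 for Ccl2 and -1.36, -2.30 and 0.10 for Cx3cl1.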
